A study of Mus musculus with 22 samples.

Results

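Syndecans and glypicans are the heparan sulphate proteoglycans of the cell surface. Their 10 mouse genes (Sdc1 to Sdc4 and Gpc1 to Gpc6) were followed in the hippocampus of TgproNGF#3 and WT mice of 3 ages (1, 3 and 12 months). The members were taken as whole families by annotation: all 11 probes of the array whose RefSeq transcript belongs to these genes, of 55681 non-control probes and of 21176 genes with a symbol, with 2 probes for Gpc5 and 1 for each of the other genes. No gene was left out or added for its own values, but the families themselves were chosen from earlier results of these arrays, by the same genotype difference that is given below. The p-values therefore describe those differences and are no independent evidence for them.

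TgproNGF#3 mice carry a mouse pre-proNGF cDNA made resistant to furin and followed by an IRES and EGFP, under the Thy1.2 promoter, which drives expression in neurons. They come from 1 founder line on the C57Bl/6xDBA/2 background, and the WT controls share this background. Each array was hybridized with RNA of the right hippocampus of 1 untreated mouse. There were 4 TgproNGF#3 and 4 WT males at 1 month, 4 and 4 males at 3 months, and 3 and 3 females at 12 months, and each age had a slide of its own. Values of different ages thus differ in sex (at 12 months) and slide as well, and these cannot be told apart from age. All 7 markers of hippocampal principal neurons that were examined were well above background on all 22 arrays.

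Syndecans span the membrane and pass signals to the cytoskeleton and to PDZ-domain proteins, whereas glypicans are held at the surface by a lipid anchor. Both present heparan sulphate chains that bind growth factors, Slit proteins, pleiotrophin and midkine, and both can be cut off the cell by proteases or, for glypicans, by lipases. In the hippocampus, syndecan-2 is known for its place in dendritic spines, syndecan-3 as the main syndecan of neurons, and glypican-4 as an astrocyte-secreted factor that promotes excitatory synapses. In whole tissue, fewer cells of a type and less RNA per cell cannot be told apart.

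Levels are given as log2 of the background-subtracted Cy3 intensity minus the 75th percentile of the same array, so that 0 is the level of the 75th percentile. They are compared between samples of 1 probe, never between probes. A probe was called when the limma p, unadjusted, was below 0.05 and the difference TgproNGF#3 minus WT was above 1 or below -1 on the log2 scale. Adjusted p-values are Benjamini-Hochberg values over all probes tested at that age. At 1 month 0 of 11 member probes were called, at 3 months 2 of the 10 that could be tested, both lower in TgproNGF#3, and at 12 months 1 of 11, higher in TgproNGF#3. Over all probes, 0.57% were called at 1 month, 6.76% at 3 months and 1.3% at 12 months, in either direction.

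The 3 calls concern Sdc4, a syndecan of focal adhesions that binds protein kinase C alpha and cooperates with integrins, and Gpc4. Sdc4 and Gpc4 were both lower in TgproNGF#3 at 3 months, and Sdc4 was higher at 12 months. For this reason the 250 bases before their transcription starts are shown, from RefSeq (GRCm38.p6), on the minus strand at chr2:164443189-164443438 for Sdc4 and chrX:52164924-52165173 for Gpc4. The array annotation uses another build (mm9), and its coordinates are not used. The sequences run from 5′ to 3′, and capitals mark every match, on either strand, to the motifs searched.

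Sdc4: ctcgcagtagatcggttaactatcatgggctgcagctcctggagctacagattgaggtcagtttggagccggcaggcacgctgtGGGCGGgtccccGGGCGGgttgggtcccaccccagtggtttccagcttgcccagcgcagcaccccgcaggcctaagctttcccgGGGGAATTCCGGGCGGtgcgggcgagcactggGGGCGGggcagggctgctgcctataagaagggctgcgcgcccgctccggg

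Gpc4: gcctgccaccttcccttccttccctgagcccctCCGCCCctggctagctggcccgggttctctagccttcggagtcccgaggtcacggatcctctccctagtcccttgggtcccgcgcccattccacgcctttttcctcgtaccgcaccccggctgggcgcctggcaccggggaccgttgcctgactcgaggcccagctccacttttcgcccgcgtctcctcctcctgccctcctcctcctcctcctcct

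The motifs were the TATA box (TATAAA), the CAAT box (CCAAT), the GC box (GGGCGG), the E-box (CACGTG), the cyclic AMP response element (TGACGTCA), the AP-1 motif (TGAGTCA) and the NF-kB motif, which was added with the sequences in view. Sdc4 held 4 matches to GGGCGG, the one nearest to the start at bases -50 to -45, and 1 to the NF-kB motif at bases -82 to -73, which directly adjoins a GGGCGG match. Gpc4 held 1 match to GGGCGG, on the opposite strand at bases -217 to -212. Of the 32841 promoters of this length in the table, 32.7% held GGGCGG and 7.25% held the NF-kB motif. GGGCGG was found in each of the 7 member promoters that the table holds (Sdc1, Sdc3, Sdc4, Gpc2, Gpc3, Gpc4 and Gpc5), and the NF-kB motif in those of Sdc1 and Sdc4. The window held 19 CpG in Sdc4 and 18 in Gpc4, against a median of 6 over all promoters. These matches are letters in a window, not measured binding sites.

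**Figure D1:**
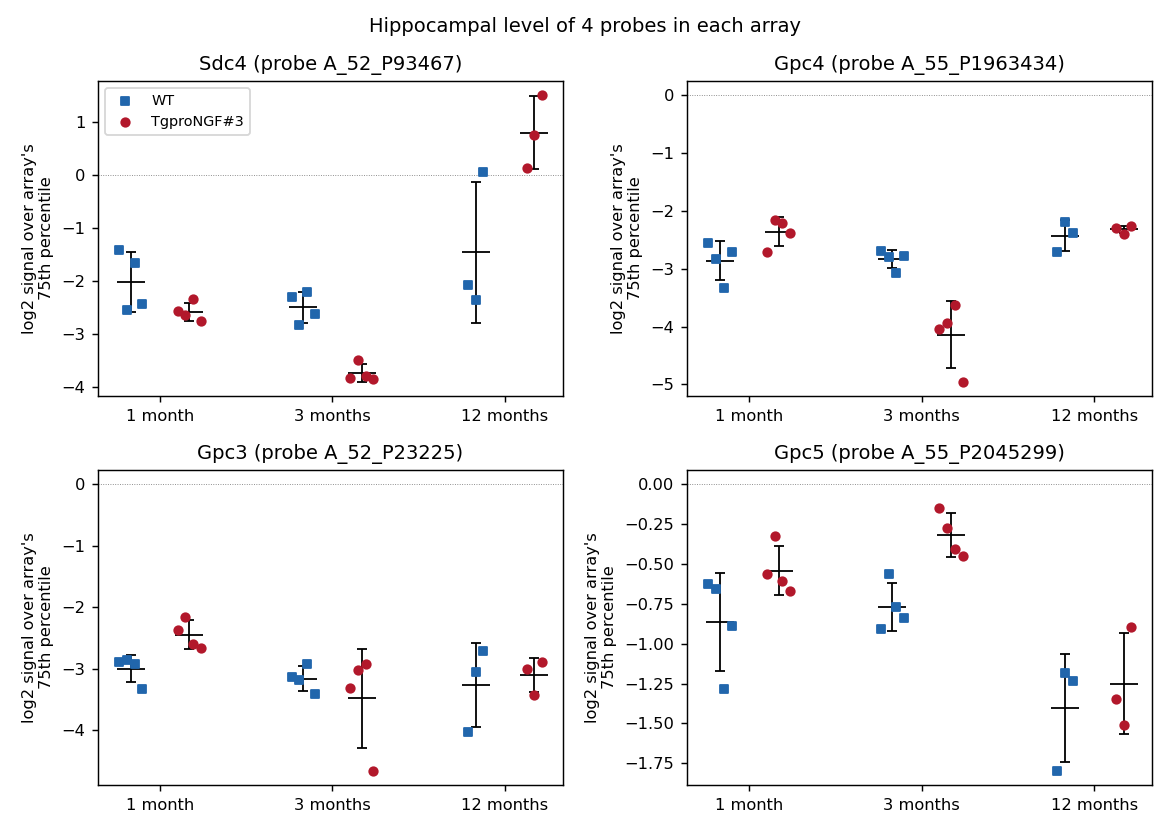
Level of the Sdc4, Gpc4 and Gpc3 probes and of 1 Gpc5 probe in every array (log2 signal over the array's 75th percentile, y axis) by age (x axis), with squares for WT, circles for TgproNGF#3 and black bars for the mean and SD. At 3 months all TgproNGF#3 circles of Sdc4 and Gpc4 lie below all WT squares, and at 12 months those of Sdc4 lie above, with 1 WT array close to them.

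Among the syndecans, Sdc4 had the lowest unadjusted p at each age. At 3 months its level was -3.83, -3.50, -3.80 and -3.84 in the TgproNGF#3 mice (replicates 1 to 4) and -2.30, -2.84, -2.21 and -2.63 in the WT mice. The groups did not overlap, as was the case for 20.3% of all probes at this age. The level was lower by a factor of 2.37 in TgproNGF#3 (log2 difference -1.25, SE 0.17, n = 4 and 4, limma adjusted p = 0.00458), and this probe was among the 6.12% of all probes called lower. Within the first array row of the slide the difference was -1.09 and within the other -1.40, with 2 mice of each genotype in each.

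At 1 month the Sdc4 level was -2.56, -2.65, -2.35 and -2.76 in TgproNGF#3 and -1.41, -2.55, -1.66 and -2.44 in WT. Replicates 1 and 3 of the WT group lay above the other 6 mice, and the groups overlapped. The log2 difference was -0.56 (SE 0.27, n = 4 and 4, exact permutation p = 0.114, limma adjusted p = 1.00), which did not pass. Between mice of the same replicate number TgproNGF#3 was lower in 4 of 4 pairs (-1.15, -0.10, -0.69 and -0.32). The labels name no pairs, and the array row changed with the number. Deviations from the group means were most alike within the pair for replicates 1 to 3, but not for replicate 4. With the number as a block the difference had an SE of 0.22 (limma adjusted p = 0.896). Without the block its interval (95%) ran from -1.16 to 0.03. The difference at 3 months minus that at 1 month was -0.68 (SE 0.33, limma adjusted p = 0.389), so a change of the genotype difference between these ages was not shown.

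At 12 months the Sdc4 level was 0.13, 0.76 and 1.51 in TgproNGF#3 and -2.08, -2.36 and 0.07 in WT. All 3 TgproNGF#3 mice were above all 3 WT mice, as for 15.5% of all probes whose groups did not overlap in either direction, but the highest WT mouse lay just below the lowest TgproNGF#3 mouse. The level was higher by a factor of 4.79 (log2 difference 2.26, SE 0.65, n = 3 and 3, limma adjusted p = 0.549). Only 0.311% of all probes were called higher at 12 months. The call rests on the unadjusted limma p, the adjusted p does not pass, and an exact permutation test cannot go below 0.10 with 3 against 3 mice.

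The position on the slide moved with this result. All 3 TgproNGF#3 arrays of 12 months lay in the second array row together with WT replicate 3, and the other WT arrays lay in the first row. For Sdc4, WT replicate 3 was 2.29 above the mean of the other WT mice on the log2 scale, and only 0.223% of 32324 probes had a gap as large. Within the second row TgproNGF#3 exceeded WT by 0.73, and with the row as a block in the fit the difference was 0.73 (SE 0.49, limma adjusted p = 1.00), no longer called. Without WT replicate 3 the difference was 3.03 (limma adjusted p = 0.0322). Whether WT replicate 3 or the other WT mice show the usual level cannot be told apart with these arrays.

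**Figure D2:**
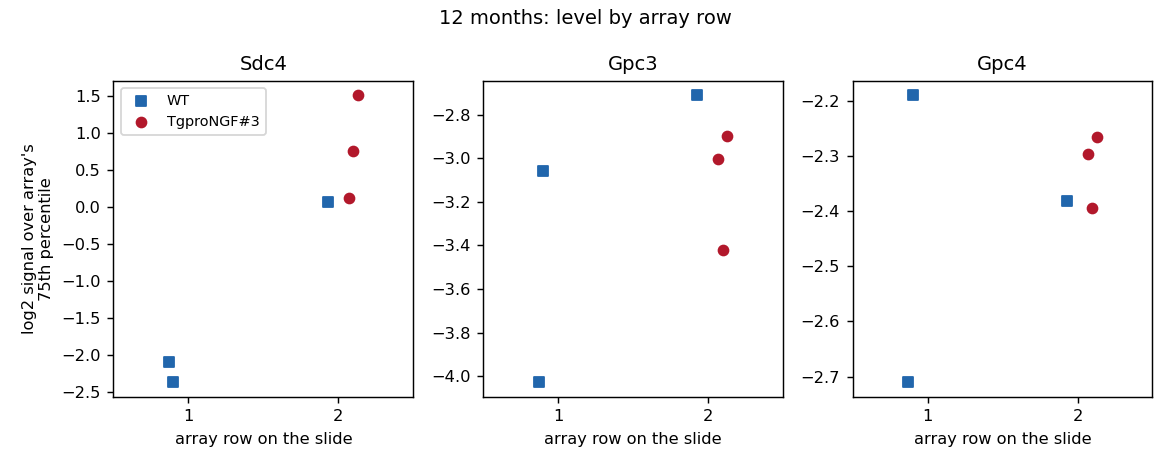
Levels of Sdc4, Gpc3 and Gpc4 at 12 months (log2 signal over the array's 75th percentile, y axis, scaled for each gene) by array row on the slide (x axis), with squares for WT and circles for TgproNGF#3. For Sdc4 the WT array in row 2 sits 2.29 above the WT arrays in row 1, and next to the TgproNGF#3 arrays of its row.

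Markers of cell types were read beside these differences, as log2 of the summed level of each of 10 lists. At 3 months the 7 astrocyte markers summed to between 3.82 and 4.25 in TgproNGF#3 and between 4.13 and 4.24 in WT, with a median difference of -0.34, and 2 of them were lower with unadjusted limma p below 0.05 (Sox9, difference -0.65, and Aldh1l1, -0.34), where 19.7% of all probes were, and neither had an adjusted p below 0.05. The 6 endothelial markers summed to between 3.28 and 3.84 and between 3.49 and 3.62 at this age. Of these, Cdh5 was called lower (-2.07, limma adjusted p = 0.0126), Pecam1 (-0.33) and Flt1 (-0.35) also had differences below 0, Cldn5 (0.44), Tek (0.34) and Ly6c1 (0.12) had differences above 0, and the median of the list was -0.10. The sums of 2 lists did not overlap at 3 months. The 3 markers of oligodendrocyte precursors summed to between 1.78 and 2.06 in TgproNGF#3 and between 2.33 and 2.52 in WT, where Gpr17 alone was lower (-0.71, adjusted p = 0.0108) and Pdgfra (0.18) and Cspg4 (0.08) were not. The 6 oligodendrocyte markers summed to between 6.07 and 6.28 in TgproNGF#3 and between 5.62 and 6.01 in WT. The 4 markers of GABAergic interneurons summed to between 4.11 and 4.79 in TgproNGF#3 and between 3.50 and 4.19 in WT, with a median difference of 0.51. Of these, Gad1 (0.63) and Sst (0.79) were higher with an unadjusted limma p below 0.05, where 7.48% of all probes were, and no adjusted p below 0.05, and Gad2 (0.39) and Pvalb (-0.04) had no p below 0.05. Of the 7 markers of hippocampal principal neurons, Fibcd1 was lower by an adjusted p below 0.05 (-0.93, limma adjusted p = 0.00942), and the median of the list was -0.12, as over all probes.

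The 11 genes of choroid plexus epithelium had medians of -0.87 at 3 months and -0.90 at 12 months, and none had an unadjusted limma p below 0.05. Their sums spread widely within groups. At 3 months TgproNGF#3 replicate 2 summed to 2.67, against 5.68 to 7.10 in the other TgproNGF#3 mice and 6.22 to 6.83 in WT. At 12 months the sums ran from 3.20 to 7.08 in TgproNGF#3 and from 3.38 to 7.61 in WT. The 4 markers of mural cells had medians of -0.05 at both ages, with none called.

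At 12 months the astrocyte markers summed to between 4.35 and 4.46 in TgproNGF#3 and between 4.43 and 4.50 in WT, and the endothelial markers to between 2.92 and 3.59 and between 3.15 and 3.33. Of the astrocyte markers, Aqp4 alone was lower with an unadjusted limma p below 0.05 (-0.57, adjusted p = 0.549), as were 2024 of 34064 probes. Gfap (0.11) and Gja1 (0.12) had differences above 0, and the median of the list was -0.07. The 6 microglial markers summed to between 3.82 and 3.90 in TgproNGF#3 and, just above, to between 3.90 and 4.10 in WT. The interneuron markers summed to 4.75, 4.59 and 5.03 in TgproNGF#3 and to 3.80, 4.09 and 4.63 in WT. WT replicate 3 lay among the TgproNGF#3 mice, and it was the only WT array in their array row. The median difference of the interneuron markers was 0.53. Gad1 (0.58) and Sst (0.82) were higher with an unadjusted limma p below 0.05, where 3.11% of all probes were, and an adjusted p of 0.549 for both. Gad2 (0.48) and Pvalb (0.34) had no p below 0.05. Of the markers of principal neurons, C1ql2 was called lower (-1.05, limma adjusted p = 0.549), and the median of the list was 0.05. The list of 12 leptomeningeal fibroblast genes had 4 members called lower in TgproNGF#3 (Slc6a13, Slc22a6, Aldh1a2 and Zic1), where 0.992% of all probes were called lower, with limma adjusted p of 0.349 to 0.549. Their list summed to between 2.95 and 3.54 in TgproNGF#3 and between 3.31 and 3.76 in WT. At 3 months the median of this list had the other sign (0.39), and 4 of the 12 genes were higher with unadjusted p below 0.05, where 7.48% of all probes were. All genes of these lists were well above background on every array. Their part in the results on Sdc4 and Gpc4 was not tested.

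The other syndecans were not called at any age. Sdc1, the syndecan of epithelia and plasma cells, was dim, with levels from -6.50 to -3.67 over all arrays, and at 12 months it was well above background on 4 of 6 arrays, so that its difference of 0.39 (SE 0.56) rests on 2 mice of each genotype. Sdc2 lay between -0.50 and 0.99, with differences of 0.04, 0.26 and -0.04 at 1, 3 and 12 months. Sdc3 lay between -0.18 and 1.03, with differences of -0.11, -0.28 and 0.16. The intervals (95%) of Sdc2 and Sdc3 stayed within -0.71 and 0.72 at every age, so a change of a factor of 2 in either direction was outside them.

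**Figure D3:**
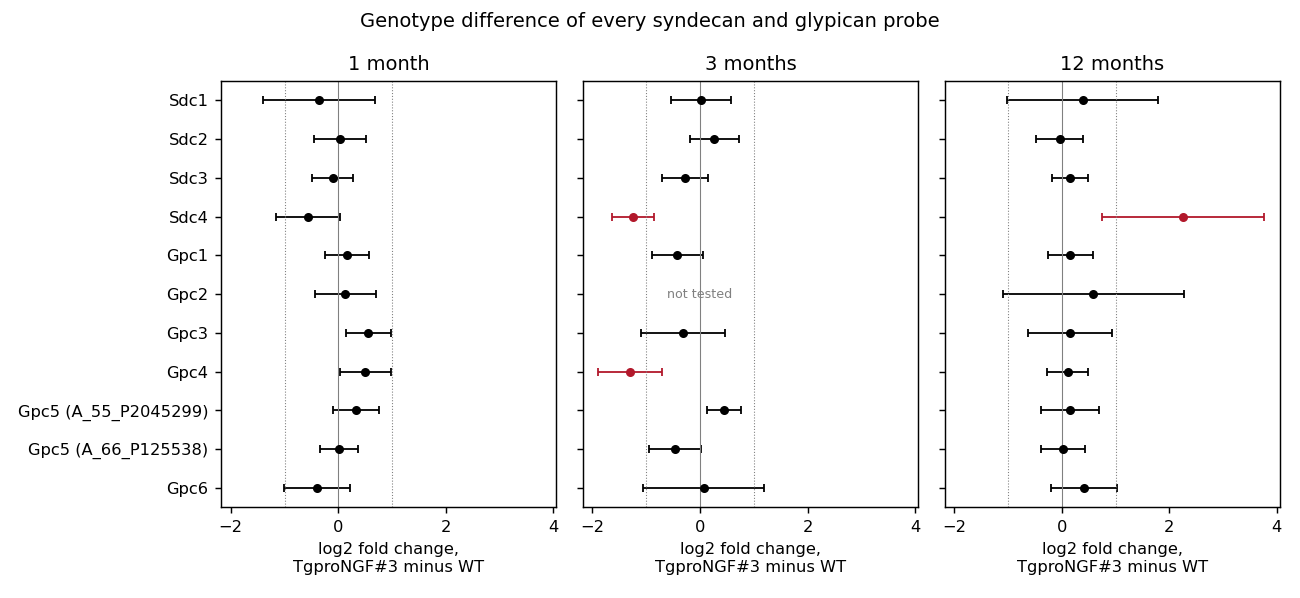
Difference TgproNGF#3 minus WT on the log2 scale (x axis) with its 95% interval from limma for every member probe (y axis) at 3 ages, with called probes in red and dotted lines at a factor of 2. Sdc4 and Gpc4 are to the left of -1 at 3 months, Sdc4 is to the right of 1 at 12 months, and the interval of every other probe includes 0 except those of Gpc3 and Gpc4 at 1 month and of Gpc5 (A_55_P2045299) at 3 months.

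Gpc4 was the glypican with the largest difference at 3 months. Its level was -4.05, -3.93, -3.62 and -4.96 in TgproNGF#3 and -2.70, -2.80, -3.07 and -2.78 in WT. Every TgproNGF#3 mouse was below every WT mouse, and replicate 4 of TgproNGF#3 was well below the other TgproNGF#3 mice. The level was lower by a factor of 2.47 in TgproNGF#3 (log2 difference -1.30, SE 0.26, n = 4 and 4, limma adjusted p = 0.0185). Without replicate 4 of TgproNGF#3 the difference was -1.03 (limma adjusted p = 0.00794). With the replicate number as a block the adjusted p was 0.0653 in limma, and without WT replicate 1 or 4 it was 0.0571 and 0.0623, while the call by p and size held in each case.

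At 1 month Gpc4 was -2.71, -2.15, -2.21 and -2.38 in TgproNGF#3 and -2.56, -2.83, -3.33 and -2.71 in WT. The TgproNGF#3 mice lay above most WT mice, but replicate 1 of TgproNGF#3 overlapped them. The difference was 0.50 (SE 0.21, exact permutation p = 0.0571, limma adjusted p = 1.00). At 12 months the levels were -2.30, -2.39 and -2.27 in TgproNGF#3 and -2.71, -2.19 and -2.38 in WT, which overlapped, and the difference was 0.11 with an interval (95%) from -0.28 to 0.50.

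Gpc3, an inhibitor of Hedgehog signalling and the neighbour of Gpc4 on chromosome X in GRCm38.p6, was beside Gpc4 the glypican with a limma p below 0.05 at 1 month. Its level was -2.38, -2.15, -2.60 and -2.67 in TgproNGF#3 and -2.89, -2.86, -2.92 and -3.33 in WT. The groups did not overlap, as for 3.32% of all probes at this age, and the difference was 0.55 (SE 0.19, exact permutation p = 0.0286, the smallest that 4 against 4 mice allow, limma adjusted p = 1.00). Of all probes, 3.47% had p below 0.05 at 1 month, and 0 had an adjusted p below 0.05. At this age TgproNGF#3 arrays took up array columns 3 and 4 and WT arrays columns 1 and 2, so genotype and column cannot be told apart.

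At 3 months Gpc3 lay at -3.32, -3.02, -2.93 and -4.65 in TgproNGF#3 and at -3.13, -3.19, -2.92 and -3.42 in WT. Replicate 4 of TgproNGF#3 was far below the rest, and the other mice overlapped. The difference was -0.32 (SE 0.35), and 0.08 without that mouse, neither with p below 0.05. At 12 months it was -3.00, -3.42 and -2.89 in TgproNGF#3 and -4.03, -3.06 and -2.71 in WT, with a difference of 0.16 (SE 0.33). WT replicate 3 was 0.83 above the other WT mice, and within its array row the difference turned to -0.40.

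The 2 probes of Gpc5, a glypican that can promote Hedgehog signalling and lies next to Gpc6 on chromosome 14 in GRCm38.p6, disagreed at 3 months. The probe A_55_P2045299 read -0.15, -0.28, -0.41 and -0.45 in TgproNGF#3 and -0.91, -0.56, -0.77 and -0.84 in WT. Its groups did not overlap, with TgproNGF#3 higher by 0.45 (SE 0.14, exact permutation p = 0.0286, limma adjusted p = 0.0761). The probe A_66_P125538 read -4.64, -4.36, -4.90 and -5.45 in TgproNGF#3 and -4.43, -4.46, -4.30 and -4.30 in WT, which overlapped, with a difference of -0.47 (SE 0.22, exact permutation p = 0.0857). Both carry the same RefSeq transcript in the annotation, and the second was nearer to background, with a median signal 6.39 times the local background against 82.0 times for the first. At 1 month A_55_P2045299 read -0.57, -0.32, -0.61 and -0.67 in TgproNGF#3 and -0.63, -0.66, -1.29 and -0.89 in WT, and at 12 months -1.35, -1.51 and -0.90 against -1.80, -1.18 and -1.23. The groups overlapped at both ages, and the differences of the probes were 0.32 and 0.01 at 1 month and 0.15 and 0.02 at 12 months, in that order.

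The remaining glypicans had no limma p below 0.05. Gpc1, a glypican of neurons, was between 3.24 and 3.90 in all mice of 1 month and between 3.01 and 3.61 at 12 months, and at 3 months it was 2.33 to 2.96 in TgproNGF#3 and 2.61 to 3.43 in WT (difference -0.43, SE 0.21, exact permutation p = 0.0857). Gpc6, an astrocyte glypican akin to Gpc4, differed by -0.39, 0.07 and 0.42 at 1, 3 and 12 months, with an SE of 0.50 at 3 months, where its TgproNGF#3 levels spread from -6.65 to -4.14. At 12 months WT replicate 3 was 0.91 above the other WT mice, and within its array row the difference of Gpc6 turned to -0.19. Gpc2, a glypican of developing neurons, could not be tested at 3 months, when 1 TgproNGF#3 and 2 WT arrays read it well above background. It differed by 0.13 (SE 0.25) at 1 month and by 0.59 (SE 0.67, 2 mice of each genotype) at 12 months.

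TgproNGF#3 replicate 4 of 3 months stood apart in these families. It had the lowest level of its group on 10 of the 10 member probes read in all 4 mice, whereas it was the lowest on 54.9% of 30301 probes over the whole array. Its 75th percentile, which is subtracted from every level, was the highest of this age (11.79, against 10.72 to 11.58 in the other mice). It also had the lowest share of spots well above background of all arrays (57.6%, against 61.9% to 64.7% in the other mice of this age). Without it, 5 member probes were lower and 5 higher in TgproNGF#3, against 6 and 4 with it, the median difference of the members was -0.03 in place of -0.30, and Sdc4 (difference -1.21, limma adjusted p = 0.00809) and Gpc4 (-1.03) were both still called. Over all probes the median difference at 3 months was -0.12 with this mouse and -0.06 without it.

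Taking the 11 probes by age, 7 were higher and 4 lower in TgproNGF#3 at 1 month (median difference 0.04, against 0.07 over all probes). This count was 5 and 6 with spots not well above background kept (median -0.03) and 5 and 6 when every non-control spot entered the percentile used for scaling (median -0.03), so no direction at 1 month holds across settings. At 3 months 2 had an adjusted p below 0.05, against 8.43% of all probes, and 3 did not overlap between genotypes, against 20.3% of all probes. At 12 months 10 were higher and 1, Sdc2, was lower, with a median difference of 0.16 against 0.01 over all probes. This count was 6 and 5 after normexp background correction and 6 and 5 with the array row as a block, so the direction at 12 months does not hold across settings.

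The genotype difference was also compared between ages in limma. For Gpc4 the difference at 3 months minus that at 1 month was -1.80 on the log2 scale (SE 0.35, adjusted p = 0.0103), and 1.75% of all probes had an adjusted p below 0.05 in this comparison. Between 3 and 12 months the difference was larger at 12 months by 3.51 for Sdc4 (SE 0.65, adjusted p = 0.00961) and by 1.41 for Gpc4 (SE 0.35, adjusted p = 0.0383), where 4.01% of all probes had such an adjusted p. With the array row as a block within each age, these values were 1.98 (adjusted p = 0.131) for Sdc4 and 1.37 (adjusted p = 0.285) for Gpc4. Each pair of ages shares the values of 3 months and lies on different slides. The 12-month mice were female, and at 1 month genotype and array column cannot be told apart.

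**Figure D4:**
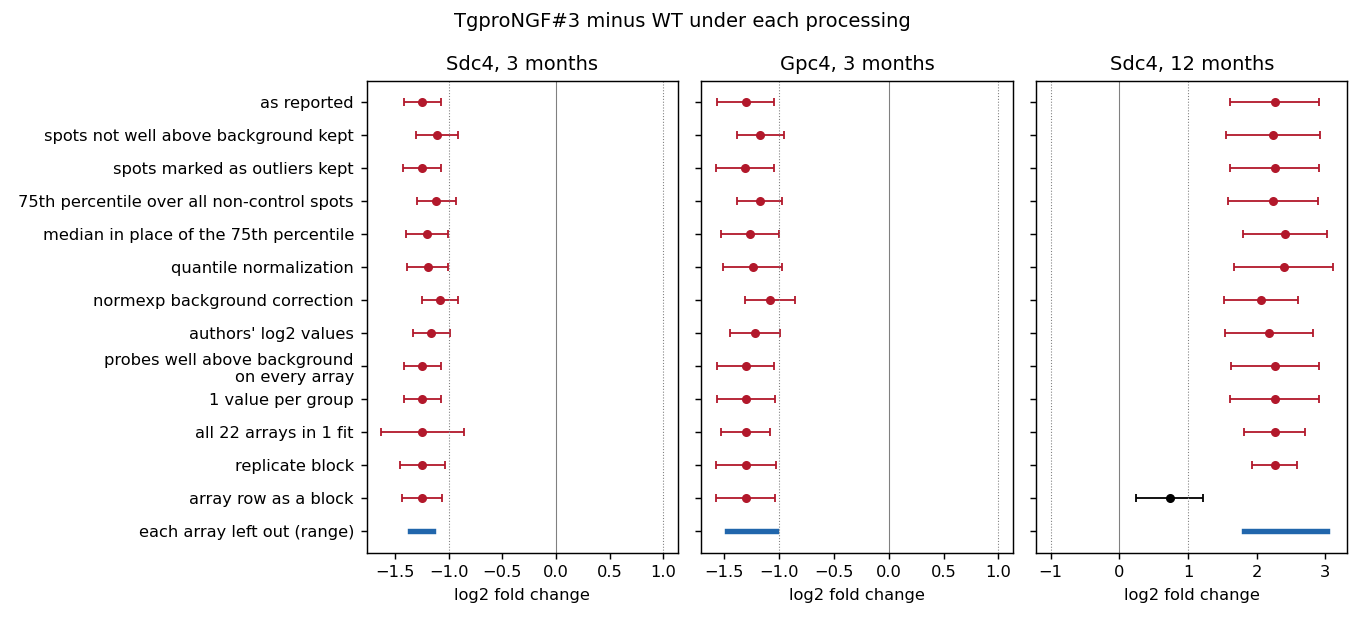
Log2 difference TgproNGF#3 minus WT (x axis) of Sdc4 and Gpc4 at 3 months and Sdc4 at 12 months under each processing (y axis), with SE bars, red where the probe is called and a blue line for the range when each array is left out. The values at 3 months stay between -1.48 and -1.03, and the value of Sdc4 at 12 months drops from 2.26 to 0.73 with the array row as a block.

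The genes that build, trim and bind heparan sulphate were read next to the core proteins, 72 genes in 6 lists with 1 probe for each gene. None was called at 1 month. At 3 months 4 of the 69 tested were called, all lower in TgproNGF#3, and 10 had an adjusted p below 0.05, 7 of them lower. Over all probes 6.76% were called, 6.12% lower, and 8.43% had such an adjusted p. At 12 months 1 of 71 was called, and 0 had an adjusted p below 0.05.

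Of the 11 genes of the linker and of chain polymerisation, 2 were called lower at 3 months, where 6.12% of all probes were. B4galt7, the galactosyltransferase that adds the first galactose of the linker on which every chain is built, was -4.36 ± 0.30 in TgproNGF#3 and -2.62 ± 0.13 in WT at 3 months (mean ± SD, n = 4 and 4), a difference of -1.74 on the log2 scale (SE 0.17, limma adjusted p = 0.00133). Fam20b, the kinase that phosphorylates the xylose of this linker, was -3.39 ± 0.53 and -1.62 ± 0.54, a difference of -1.77 (SE 0.32, adjusted p = 0.0124). Other linker enzymes had differences on both sides of 0, such as Xylt2 (0.44), which starts the linker, B3galt6 (0.17) and B3gat3 (-0.78), none with an adjusted p below 0.05, and the median of the list was -0.11, against -0.12 over all probes. The copolymerases Ext1 and Ext2 were not called at any age.

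Of 14 sulphotransferases and related enzymes of chain modification tested at 3 months, 10 had a difference above 0 and 4 below 0, and none was called. Of the 10, 6 had an unadjusted limma p below 0.05, and of the 4 none, where 7.48% of all probes were higher and 19.7% lower at that p. Their median difference was 0.40. Hs3st3a1, a 3-O-sulphotransferase, was -5.23 ± 0.41 against -6.22 ± 0.31 (difference 1.00 when rounded, limma adjusted p = 0.0485), just under the fold of the call. Its difference ranged from 0.36 to 1.29 over 10 other settings, and it was called in 4 of them and in 3 of the 8 fits that left out a mouse. Its limma adjusted p was below 0.05 in 4 of the 10 settings and in 1 of these 8 fits.

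In the remaining lists at 3 months, Adam17, a sheddase of syndecans, differed by -0.77 (limma adjusted p = 0.0269) and Sdcbp2, a PDZ partner of syndecan tails, differed by 0.60 (adjusted p = 0.0393). Neither was called. Among 17 ligands and receptors, Robo1, the Slit receptor whose binding needs heparan sulphate, was called lower (-1.85 ± 0.47 against -0.63 ± 0.28, difference -1.23, adjusted p = 0.0183). Fgfr1, a fibroblast growth factor receptor, differed by -0.63 (adjusted p = 0.0259), and the receptor phosphatases Ptprd and Ptprs, of 1 family that binds heparan sulphate, by 0.88 (adjusted p = 0.0225) and by -0.58 (adjusted p = 0.0285). Ptprs, and the linker enzymes other than B4galt7 and Fam20b, were named after their values were seen. Of the 8 fits that each left out a mouse, the adjusted p stayed below 0.05 in 3 for Adam17, 2 for Sdcbp2, 4 for Ptprd, 5 for Fgfr1, 5 for Ptprs and 6 for Robo1.

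Of the 8 other heparan sulphate proteoglycans, 6 were lower with unadjusted p below 0.05 at 3 months, where 19.7% of all probes were, and the median difference was -0.62, against -0.12 over all probes. Spock1, the secreted proteoglycan testican-1, was called, with a mean of -3.25 ± 0.68 in TgproNGF#3 (difference from WT -2.24, SE 0.31, limma adjusted p = 0.00415). B4galt7, Fam20b, Robo1 and Spock1 were called at 3 months in all 12 other settings tried and without any 1 of the 8 mice. None of them was called at the other ages. There B4galt7 and Spock1 had differences above 0, of 0.39 and 0.45 at 1 month and of 0.85 and 0.70 at 12 months, each with an unadjusted limma p below 0.05 and no adjusted p below 0.05. At 12 months Lrrtm4, a postsynaptic partner of glypicans, was lower in TgproNGF#3 (-3.70 ± 0.79 against -2.53 ± 0.34, n = 3 and 3, difference -1.16, SE 0.38, adjusted p = 0.549), against 0.992% of all probes called lower, and it was called without only 3 of the 6 mice in turn.

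**Figure D5:**
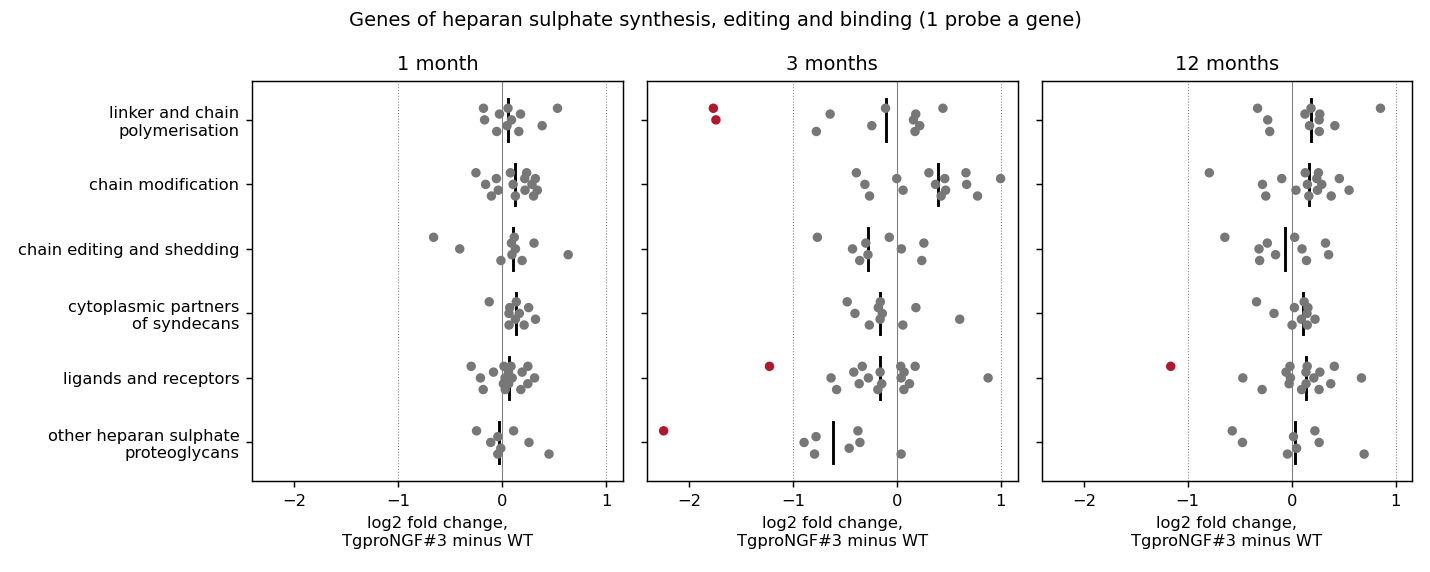
Difference TgproNGF#3 minus WT on the log2 scale (x axis) of each gene of 6 lists (y axis) at 3 ages, with called genes in red, list medians as black bars and dotted lines at a factor of 2. At 3 months B4galt7, Fam20b, Robo1 and Spock1 lie left of -1, and the median of the chain modification genes lies at 0.40.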

How the data were processed

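The authors hybridized Cy3-labelled RNA to Agilent 8x60K arrays and deposited, per the file headers, the processed signal intensity of each spot from Feature Extraction 10.7.3.1, with flags for spots well above background. They also deposited a table of log2 values aligned at the 75th percentile (28929 probes, 9 of the 11 members), used as an alternative. It differed from the values computed here by a constant per array (largest SD 0.00664), and 0 of its columns lacked a sample.

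Of the spots, controls, outliers and those not well above background were removed. The 75th percentile of the array was subtracted from log2 intensities, and spots of the same probe were averaged. Each age was fitted separately with limma 3.58.1 (R 4.3.3) and probes needed 2 or more values per genotype. The call, a fold above 2 with an unadjusted p below 0.05, follows the study's methods. The fit was tested on simulated data. The 75th percentile of arrays ranged from 10.41 to 11.96 (log2), 57.6% to 80.3% of spots were well above background and 0 were saturated. The number of mice limits the precision.

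Members and lists were chosen with earlier results of these data known. Values in every array are given for each member probe with p below 0.05 at an age; pathway genes (the probe with the highest mean level) are named when called or with adjusted p below 0.05, at most 3 for each list and age, save those said to be named after their values were seen. Cell type markers have no such limit and were named with their values known. Same-numbered mice of 1 month deviated together (correlations 0.511, 0.272, 0.191 and 0.208 over 36103 probes), but TgproNGF#3 replicate 4 correlated more with a WT mouse of another number. The fit blocked by number changed no call at 1 month. The 3-month files use an older annotation, in which 0 of the 11 member probes had another name. Alternatives covered filters, scaling, background correction, blocks, thresholds and leaving out each array. A check of the genotype labels is not reported here.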

Additional observations from a re-analysis of the deposited data

Results flagged for a closer look

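The genotype difference of 2 genes differed between ages by a test of that difference. Sdc4 differed by 3.51 (log2) between 12 and 3 months, and Gpc4 by 1.41. Gpc4 also differed by -1.80 between 3 months and 1 month. Slide changed together with age, and sex did so between 3 and 12 months only. The array row moved with the genotype at 12 months for every probe, and the array column at 1 month. With the row as a block neither value between 12 and 3 months had an adjusted p below 0.05 in limma (0.131 for Sdc4, 0.285 for Gpc4). For Gpc4 that value also missed it with the replicate block (0.119), with normexp (0.0563) and without each of 10 of the 14 mice.

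In 3 of 42 groups of 4 arrays, 1 array lay apart from the other members of its group beyond the 95% limit of Dixon's ratio, which chance passes in about 1 of 20 groups. WT replicate 3 of 1 month read Sdc2 at 0.11, with the other WT mice between 0.51 and 0.54. TgproNGF#3 replicate 2 of 3 months read Sdc4 at -3.50, with the other TgproNGF#3 mice between -3.84 and -3.80. WT replicate 4 of 1 month read Gpc3 at -3.33, with the other WT mice between -2.92 and -2.86.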

How the results depend on the processing

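Of 677 values of single probes under other settings, 656 kept their direction and side of the threshold or moved by less than 1 SD. Another 15 lost their call or, for differences between ages, their adjusted p below 0.05. Only 1 of these 15 was a call, that of Sdc4 at 12 months. A further 6 moved by more than 1 SD and 0 reversed. The calls of Sdc4 and Gpc4 at 3 months held in all 12 other settings and without each array (-1.36 to -1.15 for Sdc4, -1.48 to -1.03 for Gpc4). These probes were read on every array of this age. The filters by number of values, the fit of all 22 arrays and the blocks could therefore change only their p-values, not their differences. The number of member probes called was 2 of 11 at 1 month and 3 of 10 at 3 months with unadjusted p alone, and 0 at 12 months both with the array row as a block and with an adjusted p below 0.05. At 12 months Sdc4 ranged from 1.81 to 3.03 with each array left out and fell to 0.73 with the row as a block. Between 12 and 3 months, 1 probe in place of 2 passed with normexp and with the replicate block, 0 passed with the array row as a block (added after seeing the data), and 1 to 2 passed with each array left out. Gpc4 lost this difference without TgproNGF#3 replicate 1 or WT replicates 1, 2 or 4 of 3 months. The same held without any of the 6 mice of 12 months. Over all 14 fits that each left out a mouse, the value of Gpc4 ran from 1.14 to 1.59. Gpc4 also lost the difference with normexp (1.14, limma adjusted p = 0.0563) and with the replicate block (1.41, adjusted p = 0.119). Replicate numbers did not pair the mice of 3 months (correlations -0.356 to -0.0234) or 12 months (-0.316 to 0.0503), and the replicate block left 2 members called at 3 months and 1 at 12 months.

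Scaling moved the median of all probes at 3 months from -0.12 to about 0 (75th percentile over all spots), where Sdc4 was at -1.12 and Gpc4 at -1.18, and at 12 months from 0.01 to 0.16 (median scaling), where Sdc4 was at 2.41. Over all probes the share of calls that were lower was 57.6%, 90.5% and 76.1% at the 3 ages, and 40.5%, 85.2% and 44.8% after quantile normalization. All probes called numbered 54 at 1 month, 1234 at 3 months and 197 at 12 months after normexp, against 231, 2272 and 444. With dim spots kept, 3900 were called at 3 months and 1337 at 12 months, and with the array row as a block 175 at 12 months. With an adjusted p below 0.05 in limma, 0, 2831 and 0 passed at the 3 ages, and with an unadjusted p below 0.05, 1405, 9127 and 3084. Sdc1 and Gpc2, near background, are the members whose values depth of signal limits most.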
